A study of Rattus norvegicus with 2 samples.

Results

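Actin filaments shape the ramified, motile microglia, which are the resident macrophages of the brain, and 9 genes of the filament system were followed here. Their symbols were matched in the deposited feature table, where all 9 were found among 32623 genes. They were picked because earlier values from these same libraries showed actin and thymosin transcripts shifted in opposite directions, so the microglial values below are a description of that shift and carry no test. Cytoplasmic actin is a monomer that assembles into filaments. Beta-thymosins bind monomers and hold them out of filaments, profilin delivers monomers to growing ends, cofilin severs old filaments, and the Arp2/3 complex starts new branches. In leukocytes and microglia this cycle drives migration, process movement and phagocytosis.

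One library came from hippocampi of rat embryos with prenatal exposure to the synthetic glucocorticoid dexamethasone, and the control library from embryos without that exposure. Each library was a pool of 7 male embryos at gestational day 20, with microglia isolated by flow cytometry and captured in droplets. Dose, timing of exposure and rat strain were not given in the sources used here. Each group being a single library, the values carry exact intervals at 95% for counting error only, and a batch difference and the exposure cannot be told apart.

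UMIs (unique molecular identifiers, 1 per captured transcript) numbered 42611920 in 4328 barcodes with dexamethasone and 69940778 in 8342 control barcodes. Filters kept 4198 dexamethasone and 8044 control cells, with medians of 8988 and 7621 UMIs, and 5 barcodes occurred in both libraries. Cells were assigned by marker genes that include no member. Microglia-like cells, which carried core microglial markers such as P2ry12, Tmem119 and Sall1, made up 81.8% of dexamethasone cells (3432) and 80.1% of control cells (6444). In these cells 17 of 18 matched microglial markers had at least 10 UMIs in each library. Mitochondrially encoded transcripts were 3.14% of their UMIs with dexamethasone and 5.99% in control cells. Of 13 neuronal markers, 10 reached 10 UMIs in dexamethasone and 13 in control microglia-like cells, summing to 16.1 and 62.1 CPM (UMIs scaled to a total of 1000000). Of 17 erythroid markers, 10 and 8 did, summing to 221.1 and 409.6 CPM. Acta2, the smooth muscle actin of vessel walls, had 0 UMIs over all barcodes of both libraries, so it says nothing of vessel cells here. Of 9 matched endothelial and mural markers, 1 reached 10 UMIs in each library, with sums of 3.38 CPM in dexamethasone and 3.02 CPM in control microglia-like cells. As log2 of dexamethasone over control, the summed actins (Actb and Actg1) stood at -0.529 and the summed thymosins (Tmsb4x and Tmsb10) at 0.323. Without mitochondrial, ribosomal protein and member genes in the total, they stood at -0.530 and 0.321. In cells of at least 500 genes and at most 10% mitochondrial UMIs, they stood at -0.537 and 0.321. Beyond these values, the part of the mitochondrial, neuronal and erythroid differences in the results was not tested.

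Both cytoplasmic actin transcripts were lower in dexamethasone than in control microglia-like cells. Actb, which encodes beta-actin, stood at 3918 CPM in dexamethasone cells (Poisson interval 3897 to 3939) and at 5655 CPM in control cells (5635 to 5674). Its log2 ratio, dexamethasone over control, was -0.53 (-0.54 to -0.52). Actg1, which encodes gamma-actin, stood at 106.4 CPM in dexamethasone cells and 150.01 CPM in control cells, a log2 ratio of -0.50 (-0.55 to -0.44). Neither pair of counting intervals overlapped, but nor did those of the regulator Cfl1, at 2259 to 2291 against 2386 to 2412 CPM. The share of all genes without overlap was not counted, so nothing is read from it.

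The thymosins moved apart from each other. Tmsb4x, which encodes thymosin beta-4, the main monomer-sequestering peptide of many cells, stood at 42904 CPM in dexamethasone cells and 34294 CPM in control cells, a log2 ratio of 0.32 (0.32 to 0.33). It took 4.29% of all UMIs of dexamethasone and 3.43% of those of control cells. Tmsb10, which encodes the related thymosin beta-10, had 116 UMIs in dexamethasone cells and 556 in control cells. That is 3.35 CPM (2.77 to 4.02) against 9.60 CPM (8.82 to 10.4), a log2 ratio of -1.52 (-1.82 to -1.23). A description of thymosin transcripts as higher thus held for Tmsb4x and went against Tmsb10, which lay on the side of the actins. Because Tmsb4x supplied nearly all thymosin UMIs, the summed thymosins stood at 42908 against 34304 CPM.

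The regulators stayed closer to equality. Pfn1, which encodes profilin-1, stood at 2827 CPM in dexamethasone and 2566 CPM in control cells, a log2 ratio of 0.14 (0.13 to 0.15). Cfl1, which encodes cofilin-1, stood at 2275 against 2399 CPM, with a ratio of -0.08. Coro1a, which encodes the coronin of leukocytes, stood at 560.2 against 597.0 CPM (-0.09). The Arp2/3 subunit genes Arpc1b and Arpc2 had log2 ratios of -0.07 and -0.03. Arpc1b stood at 933.8 against 982.1 CPM and Arpc2 at 686.4 against 702.7 CPM. Together the 9 genes took 5.42% of the UMIs of dexamethasone and 4.74% of those of control microglia-like cells.

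**Figure D1:**
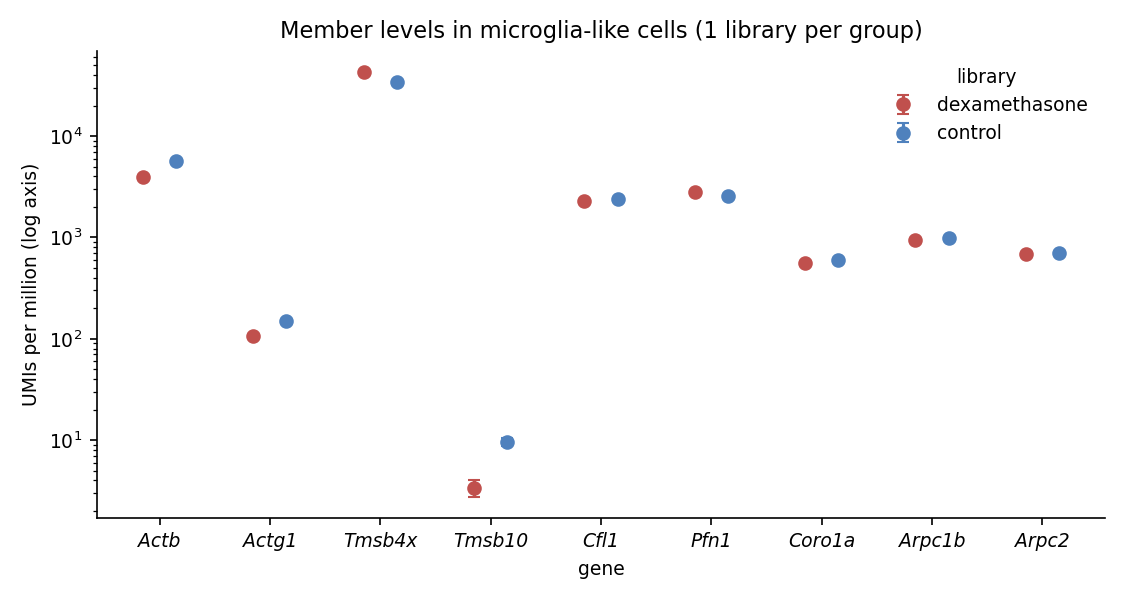
Level of each member in microglia-like cells, in CPM on a log axis, with exact Poisson intervals as bars (counting error only, often smaller than the point) and 1 library per group. Actb, Actg1 and Tmsb10 lie lower and Tmsb4x higher in the dexamethasone library, while the other 5 pairs lie close together.

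With a log2 ratio of at least 0.25 in size taken as a fold of note, Tmsb4x was higher and Actb, Actg1 and Tmsb10 were lower, and 5 members lay between. Of 10627 genes with at least 100 UMIs in these cells, 12.9% were higher and 13.8% lower by that measure (26.7% in all). Nothing is read from the members' count, since the same contrast led to their choice. The median over all these genes was -0.01. A lower ratio than that of Actb was found for 2.98% of genes, than that of Actg1 for 3.47%, than that of Tmsb10 for 0.339% and than that of Tmsb4x for 91.5%. Among the 143 genes averaging at least 1000 CPM, 11 had a lower ratio than Actb. Within a library, Tmsb4x had 10.95 UMIs for each Actb UMI in dexamethasone cells and 6.06 in control cells, a log2 difference of 0.85.

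**Figure D2:**
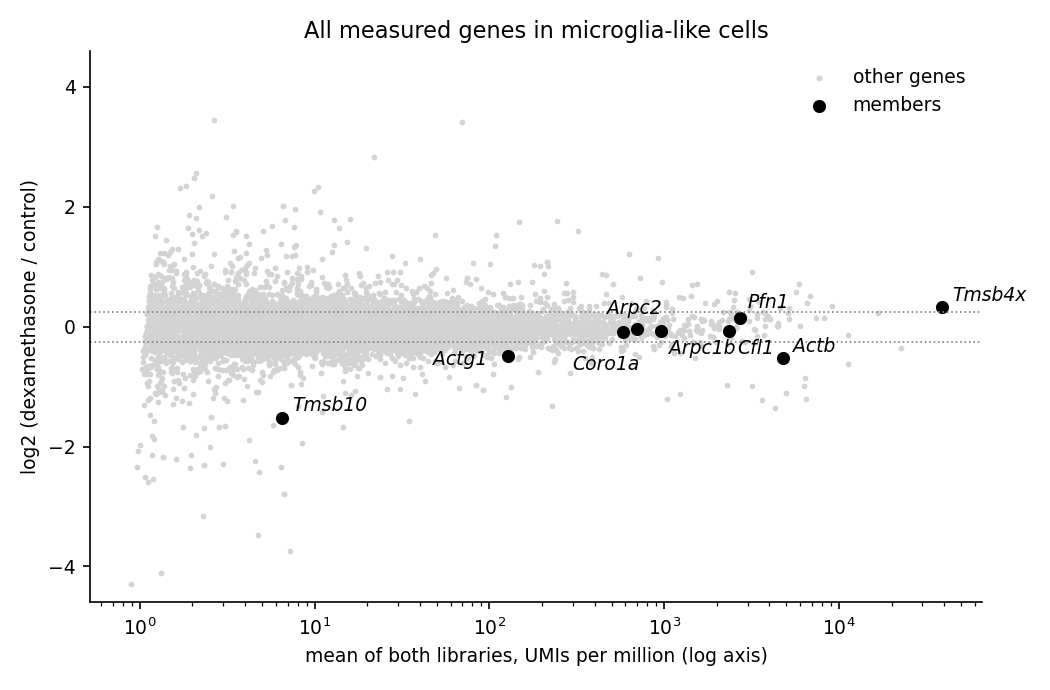
Log2 ratio of every measured gene in microglia-like cells against its mean level in both libraries (CPM, log axis), with the 9 members in black and dotted lines at a log2 ratio of 0.25 in either direction. Tmsb4x lies furthest right and above the upper line, and Actb, Actg1 and Tmsb10 lie below the lower line.

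Of the members past that fold, Actg1, Tmsb4x and Tmsb10 were also compared in their upstream sequence. Upstream sequences were taken from RefSeq (build GRCr8, which differs from the build the reads were mapped to), where 8 of the 9 members, without Actb, matched by symbol. The 250 bases before the gene start are shown for those 3, because their levels moved in different directions. Capitals mark matches to the CArG box, the motif bound by serum response factor, and to CCAAT. Actg1 lies at chr10:106120952-106121201 on the minus strand, Tmsb4x at chrX:30761361-30761610 on the plus strand and Tmsb10 at chr4:106569141-106569390 on the minus strand, each written 5′ to 3′ along the gene.
Actg1: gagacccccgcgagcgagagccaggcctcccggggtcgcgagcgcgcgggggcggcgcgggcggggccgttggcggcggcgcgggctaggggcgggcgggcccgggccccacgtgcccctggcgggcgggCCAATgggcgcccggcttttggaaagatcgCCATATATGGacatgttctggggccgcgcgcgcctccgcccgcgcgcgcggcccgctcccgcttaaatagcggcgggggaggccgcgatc
Tmsb4x: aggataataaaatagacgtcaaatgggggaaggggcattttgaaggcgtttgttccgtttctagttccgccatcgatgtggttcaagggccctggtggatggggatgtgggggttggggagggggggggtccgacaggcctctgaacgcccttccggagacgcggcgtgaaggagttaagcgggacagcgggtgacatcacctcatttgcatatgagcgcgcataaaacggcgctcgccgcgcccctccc
Tmsb10: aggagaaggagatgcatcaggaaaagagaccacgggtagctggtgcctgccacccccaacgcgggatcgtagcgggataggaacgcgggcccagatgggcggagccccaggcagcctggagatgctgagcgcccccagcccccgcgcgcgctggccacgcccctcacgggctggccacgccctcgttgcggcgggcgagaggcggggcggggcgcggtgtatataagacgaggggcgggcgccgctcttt

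The Actg1 window held 1 CArG box, CCATATATGG, starting 90 bases before the gene start, and 1 CCAAT starting 120 bases before it. None of the other 7 windows held a CArG box, against 1.50% of all 33469 windows of that length, and Cfl1 alone among them held a CCAAT, which 34.0% of all windows hold. GGGCGG occurred in 7 of the 8 members' windows, all but that of Tmsb4x, and in 30.5% of all windows. TATAAA (12.9% of all windows) and the full glucocorticoid response element (AGAACA and TGTTCT with 3 bases between, in 4 windows in all) occurred in none of the 8. Both strands were searched, and no match to one motif overlapped a match to another. These matches describe letters in a short window and say nothing of whether a factor binds there.

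Across the other gated classes, Actb was lower in the dexamethasone library in each, and Tmsb4x differed by class. In border-macrophage-like cells (209 dexamethasone and 623 control cells, with Mrc1 and Lyve1 high), Actb stood at 3010 against 3989 CPM (log2 ratio -0.41) and Tmsb4x at 39893 against 32843 CPM (0.28). In macrophages with few core microglial markers (206 and 141 cells), Actb stood at 3474 against 4494 CPM (-0.37) and Tmsb4x at 51916 against 42935 CPM (0.27). These classes repeated both directions. The intervals of these ratios did not reach 0, but the share of all genes for which that holds was not counted. Both classes come from the same 2 libraries and are no replicates of the microglial values. The fold of note was passed by 1 member upward and 2 downward of 8 measured in each of these classes. Over all genes, 17.9% were higher and 19.8% lower in border-macrophage-like cells (37.7% in all), and 17.0% and 23.1% in the other macrophages (40.1%).

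Neuron-like cells, 84 in the dexamethasone and 352 in the control library, shared the actin difference without that of Tmsb4x. Actb stood there at 3597 against 5214 CPM, with a log2 ratio of -0.54 (-0.61 to -0.46), and Actg1 at 170.0 against 239.7 CPM (-0.50). Tmsb4x stood at 16268 CPM in dexamethasone and 15965 CPM in control neuron-like cells, a ratio of 0.03 (-0.01 to 0.06). Without the 3 cells of most Tmsb4x UMIs in each library it was -0.06. With each cell cut at random to 4200 UMIs, Tmsb10 was found in 1 of 48 dexamethasone neuron-like cells (2.08%, 0.05 to 11.1%). In the control library it was found in 16 of 110 (14.5%, 8.55 to 22.5%). That cut left out 36 and 242 shallower cells. Of 8 members measured, 4 were lower past the fold and none higher, where 19.5% of 2861 genes were lower and 21.0% higher (40.5% in all). The leukocyte genes among those 4, Coro1a and Arpc1b, stood at 66.9 against 107.0 CPM and 32.5 against 116.1 CPM. Summed microglial markers in these cells stood at 527.2 and 1353 CPM, with 5 and 11 of 18 at 10 UMIs or more. The dexamethasone cells were also deeper, with a median of 5556 UMIs against 1640. The part of either in these ratios was not tested.

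Erythroid-like cells, which carried globin transcripts, gave the opposite sign for Tmsb4x. It stood at 757.6 CPM in 93 dexamethasone cells and 1441 CPM in 125 control cells, a log2 ratio of -0.93 (-1.02 to -0.84). Actb stood at 171.2 against 277.2 CPM (-0.70), and Cfl1 at 37.1 against 104.2 CPM (-1.49). A few cells held many of these UMIs: 3 dexamethasone cells carried 65.9% of Tmsb4x UMIs there, and 3 control cells 34.4%. Without them the ratio was -1.86, an alternative chosen after the data were seen. Most genes were lower in this class, 65.2% of the 483 measured by the fold of note against 11.2% higher (76.4% in all), with a median of -0.52, and all 6 measured members were lower. A few erythroid-like cells also differed in embryonic globin: Hbe1 had at least 10 UMIs in 7 of 93 dexamethasone and 0 of 125 control cells. It stood at 10801 against 4.63 CPM, and 3 cells held 80.8% of its UMIs in the dexamethasone erythroid-like cells. Microglial markers summed to 305.2 CPM in dexamethasone and 1024 CPM in control erythroid-like cells, with 8 and 12 of 18 at 10 UMIs or more, and the part of either in the member ratios was not tested. Granulocyte-like cells, at 48 and 37, were below the minimum of 50 cells. Actb stood there at 3709 against 4429 CPM and Tmsb4x at 32674 against 29342 CPM.

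Among classes with at least 50 cells in both libraries, the order by Actb level was the same in both. Microglia-like cells were highest, then neuron-like cells, the macrophages with few core markers, border-macrophage-like cells and, far below, erythroid-like cells. In the dexamethasone library the counting intervals of the second and the third class overlapped, at 3436 to 3763 CPM and 3388 to 3563 CPM, and in the control library they did not (5091 to 5338 and 4344 to 4648 CPM). Among the same classes, the macrophages with few core markers came first for Tmsb4x, then microglia-like, border-macrophage-like, neuron-like and erythroid-like cells, again in both libraries and with no overlap between neighbours. Actg1 was highest in neuron-like cells of the classes with at least 50 cells, in both libraries, and its counting intervals there overlapped those of no other such class.

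**Figure D3:**
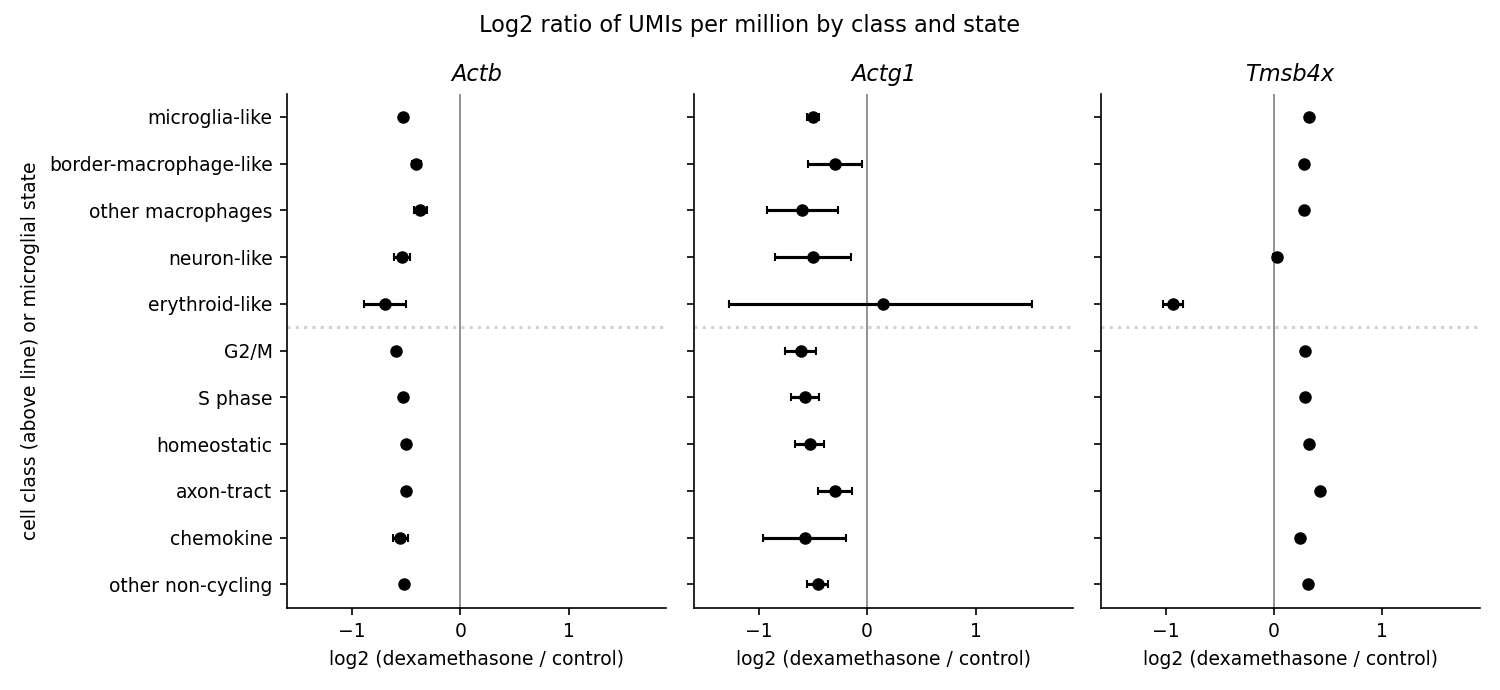
Log2 ratio of Actb, Actg1 and Tmsb4x, dexamethasone over control, in 5 cell classes (above the dotted line) and 6 microglial states, with exact counting intervals as bars. Actb lies left of 0 throughout, Tmsb4x lies right of 0 in the macrophage classes and all states, near 0 in neuron-like and left of 0 in erythroid-like cells, and the Actg1 interval in erythroid-like cells spans 0.

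Within microglia-like cells, 6 states were separated by marker thresholds, and the opposite directions of Actb and Tmsb4x recurred in each. Cells with G2/M markers (428 dexamethasone, 963 control) had Actb at 3510 against 5300 CPM, the lowest of the state ratios at -0.59. S phase cells (647 and 928) had it at 3978 against 5748 CPM (-0.53). Cells high in homeostatic markers (697 and 1877) had it at 4277 against 6066 CPM (-0.50). Axon-tract cells, which carry Spp1, Gpnmb and Igf1 (351 and 593), had Actb at 3216 against 4559 CPM (-0.50). Chemokine-bearing cells (92 and 93) had it at 3694 against 5425 CPM (-0.55), and the remaining non-cycling cells (1217 and 1990) at 4150 against 5960 CPM (-0.52). The highest Actb level of the dexamethasone states, 4277 CPM in homeostatic cells, lay below the lowest of the control states, 4559 CPM in axon-tract cells. State and library thus did not overlap for Actb, and the order of the states by level was the same in both libraries. Chemokine-bearing and G2/M cells, next to each other in that order, had overlapping intervals in both libraries. The states are parts of the microglia-like cells whose contrast led to the choice of Actb. The share of all genes separated by library in this way was not counted, so nothing is read from the separation.

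Tmsb4x had its largest state ratio in axon-tract cells, 0.42 (0.41 to 0.43), at 38434 against 28679 CPM, and its smallest in chemokine-bearing cells, 0.24 (0.22 to 0.26), at 39163 against 33163 CPM. It stood at 43684 against 35843 CPM in G2/M cells, at 41187 against 33755 CPM in S phase cells and at 40919 against 32701 CPM in homeostatic cells. The remaining non-cycling cells were highest in both libraries, at 46325 and 37166 CPM. The lowest dexamethasone state therefore lay above the highest control state, and the limits given for Actb hold here too. Pfn1 also had its largest state ratio in axon-tract cells, at 2536 against 2166 CPM (0.23). In chemokine-bearing cells it stood at 2510 against 2587 CPM (-0.04, -0.13 to 0.05). Differences between state ratios were not tested.

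Actg1 was lower in each state, from -0.62 in G2/M cells to -0.30 in axon-tract cells, where it stood at 117.2 against 144.1 CPM. Tmsb10 was lower in each state too, on 1 to 37 UMIs in the dexamethasone and 9 to 162 in the control states. Cfl1 ranged from -0.12 to -0.02 over the states, Coro1a from -0.24 to -0.02, Arpc1b from -0.24 to -0.06 and Arpc2 from -0.19 to -0.01. Coro1a was lowest in axon-tract cells in both libraries, at 353.8 and 395.9 CPM, and highest in G2/M cells, at 645.6 and 683.1 CPM. The fold of note was passed by 4 of 9 measured members in G2/M, S phase, homeostatic and the remaining non-cycling cells, by 3 of 8 in axon-tract and by 2 of 8 in chemokine-bearing cells. The share of all genes past it was 30.1% in G2/M, 28.4% in S phase, 29.7% in homeostatic, 28.3% in the remaining, 31.9% in axon-tract and 38.0% in chemokine-bearing cells.

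The shift was spread over the cells rather than held by a few. Each microglia-like cell was thinned to 4200 UMIs, which left out 181 shallower dexamethasone and 617 control cells. The median cell then had 16 Actb UMIs with dexamethasone, with 80% of 3251 cells between 8 and 26, and 23 with control, with 80% of 5827 cells between 12 and 36. More Actb than the control median was found in 16.0% of the dexamethasone cells (interval 14.8 to 17.3%) against 46.3% of the control cells. For Tmsb4x the medians were 172 and 138 UMIs, with central ranges of 117 to 246 and 94 to 194. The control median was exceeded in 77.3% (75.8 to 78.7%) of the dexamethasone against 49.4% of the control cells. The distributions overlapped widely for both genes. Cells of 1 library are not replicates, so these shares describe the libraries.

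**Figure D4:**
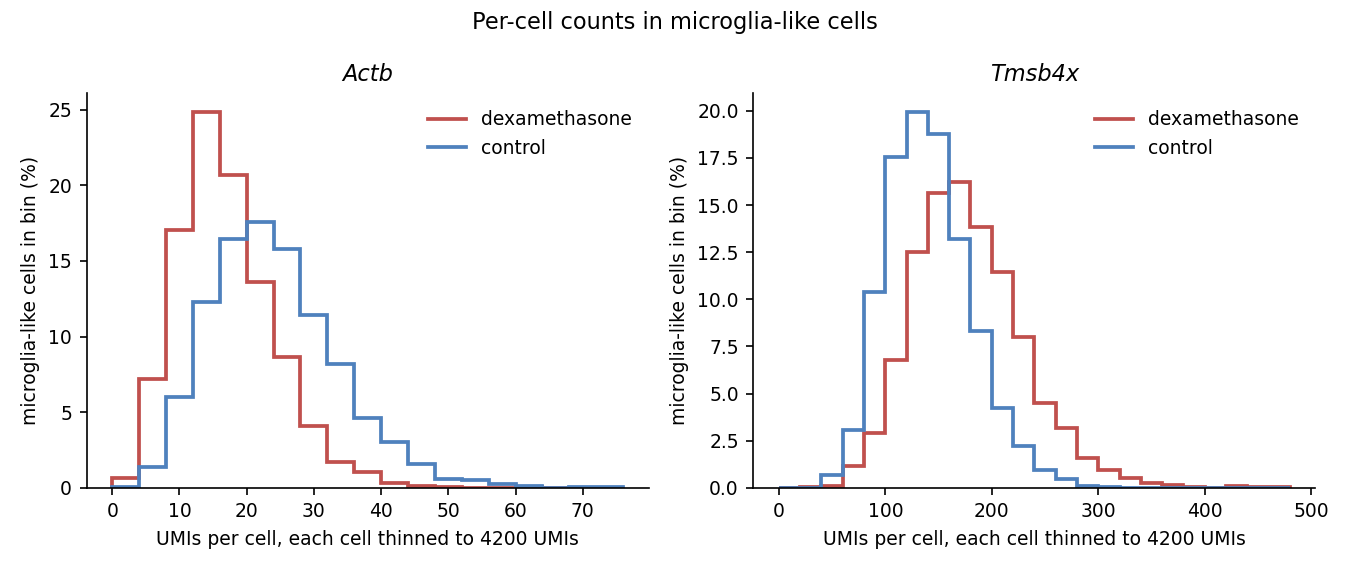
Share of microglia-like cells by UMIs of Actb (left) and Tmsb4x (right) after thinning each cell to 4200 UMIs, for 3251 dexamethasone and 5827 control cells. The bulk of the Actb distribution of the dexamethasone library lies to the left of that of the control (medians 16 and 23) and that of Tmsb4x to the right (medians 172 and 138), with wide overlap.

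The cell-to-cell spread of both genes was alike in the libraries. After removal of counting noise the coefficient of variation of Actb was 0.36 in dexamethasone and 0.35 in control cells, and that of Tmsb4x 0.28 and 0.27. Per cell, the median log2 ratio of Tmsb4x to Actb, with 1 added to each count, was 3.38 in the dexamethasone and 2.55 in the control library. Within each library all pairs of members other than Actg1 and Tmsb10 had positive correlations from cell to cell, some of them very weak. The correlation of Actb with Tmsb4x was 0.24 over 3251 dexamethasone and 0.30 over 5827 control cells. That of Tmsb4x with Pfn1, the highest, was 0.39 and 0.37. That of Coro1a with Arpc1b, the lowest, was 0.08 and 0.03. These cells share a library and a fixed depth, so the coefficients are descriptions. The opposite shift between the libraries was thus not mirrored by an opposite relation between cells of either.

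Actg1 and Tmsb10 were sparse. After thinning, Actg1 was detected in 34.5% (32.9 to 36.2%) of dexamethasone against 44.9% (43.7 to 46.2%) of control cells, and without thinning in 58.9% and 65.0%. Erythroid-like cells, thinned likewise, carried it in 1.09% of 92 dexamethasone and 0.806% of 124 control cells. Tmsb10 was detected in 1.45% of dexamethasone (1.06 to 1.92%) and 3.55% of control microglia-like cells (3.09 to 4.06%), and without thinning in 3.29% and 8.01%. In erythroid-like cells it was found in 0 of 92 and 0 of 124, which allows shares of up to 3.26% and 2.42% at a limit of 3 counts, or 3.93% and 2.93% at the upper Clopper-Pearson bound. In the control library both limits lie below the interval of the microglial share, and in the dexamethasone library above it. Erythroid markers summed to 604380 CPM in dexamethasone and 644618 CPM in control erythroid-like cells, so thinning left these cells fewer other UMIs. Their shares are therefore no like measure of background, and no conclusion is drawn from them. RefSeq lists 13 further loci named after Actg1 (11 of them pseudogenes), 10 after Tmsb10 (5), 11 after Actb (10) and 12 after Cfl1 (11). Reads shared with such copies could be lost or split in the authors' counting, so the levels of these genes are uncertain.

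Cell depth differed between the libraries, so the ratios were also read at matched depth. Over 6 bins of total UMIs, the Actb ratio ran from -0.47 in cells under 4000 UMIs (150 dexamethasone and 527 control cells) to -0.57 in cells of 14000 UMIs or more (590 and 834). Tmsb4x ran from 0.65 in the shallowest bin, at 45220 against 28854 CPM, through 0.42 at 4000 to 6000 UMIs, to 0.27 in the deepest, at 43485 against 36088 CPM. The control level of Tmsb4x was higher in each deeper bin, while the dexamethasone level ranged from 40536 to 45220 CPM without that order. Pfn1 ran from 0.28 to 0.07. The directions of Actb and Tmsb4x were the same in all 6 bins. Those of some regulators were not. Under 4000 UMIs, Arpc2 was at 0.27 (0.08 to 0.46), Arpc1b at 0.10 and Cfl1 at 0.02. At 4000 to 6000 UMIs, Coro1a was at 0.01 and Arpc2 at 0.004. All of these intervals but that of Arpc2 under 4000 UMIs spanned 0.

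Most genes of the wider actin machinery lay short of the fold of note, and those past it were more often lower. A list of 155 other genes, chosen with earlier results of these data known, had 132 measured members in microglia-like cells. Of these 9 were higher and 26 lower past the fold of note, and 97 lay between. Higher members were 6.82% of the list, beside 12.9% of all genes, and lower members 19.7%, beside 13.8%. Both directions together came to 26.5%, beside 26.7% of all genes, with a median of -0.02 beside -0.01. The counts of the roles below are to be read against the same 12.9% higher and 13.8% lower over all genes.

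Among monomer and filament regulators, Dstn, a relative of cofilin, stood at 718.9 against 635.1 CPM (0.18), and Gmfg, which prunes Arp2/3 branches, at 449.2 against 460.6 CPM (-0.04). Ssh2, a phosphatase that activates cofilin, stood at 137.1 against 173.1 CPM (-0.34). None of 7 other Arp2/3 subunits passed the fold, and Actr2, an actin-related subunit of the complex, had the largest ratio in size at 687.2 against 787.5 CPM (-0.20). Among nucleation promoters 3 of 16 were lower past the fold (18.8%) and none higher, with Wasf2 at 189.2 against 242.1 CPM (-0.36) and Cyfip1, its partner in the WAVE complex, at 312.5 against 368.2 CPM (-0.24). Formins and Ena/VASP proteins, which elongate unbranched filaments, had 5 of 9 members lower past the fold (55.6%, beside 13.8% of all genes) and a median of -0.34. All 5 stood under 50 CPM in both libraries, and 1 of them was matched through a synonym. The members above 50 CPM lay short of the fold, from -0.14 to 0.11. The most abundant member of this role, Evl, stood at 157.0 against 173.4 CPM (-0.14). Of 3 further coronins 1 passed the fold, and Coro1b stood at 114.3 against 135.0 CPM (-0.24).

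Among capping and severing proteins 1 of 10 passed the fold, Add1, an adducin, at 48.9 against 59.0 CPM (-0.27), and Capza2, a capping protein subunit, stood at 470.4 against 462.1 CPM (0.03). Crosslinkers had 4 of 18 members higher (22.2%) and 3 lower (16.7%) past the fold. Marcks, which binds filaments at the membrane, stood at 1877 against 1813 CPM (0.05) and its relative Marcksl1 at 119.3 against 153.0 CPM (-0.36). Lsp1, a filament-binding protein of leukocytes, had the largest ratio of the whole list, at 38.1 against 5.39 CPM (2.82, 2.64 to 3.01), and was chosen after its values were seen. Tropomyosins had 1 of 4 lower past the fold, with Tpm3 at 692.4 against 753.5 CPM (-0.12). Myosins had 3 of 10 lower and 1 higher, with the light chain Myl6 at 1219 against 1390 CPM (-0.19) and Myo1f at 117.8 against 137.9 CPM (-0.23). Membrane linkers had 1 of 11 past the fold, the integrin-binding Tln1 at 537.4 against 666.2 CPM (-0.31).

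Srf, which encodes the factor that binds CArG boxes, stood at 14.5 against 12.6 CPM (0.20, 0.04 to 0.37). Of the other beta-thymosins 1 was measured, Tmsb15b2, at 7.85 against 10.6 CPM (-0.44). Tubulins, the protein family of microtubules, had 1 of 10 higher and 2 lower past the fold. Tubb5 stood at 1030 against 949.0 CPM (0.12) and Tuba1a, an alpha-tubulin abundant in neurons, at 140.9 against 237.7 CPM (-0.75). The neuronal markers Tubb3 and Stmn2 moved the same way in these cells, at 1.59 against 7.53 CPM and 2.11 against 10.7 CPM, and their part in the Tuba1a ratio was not tested.

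**Figure D5:**
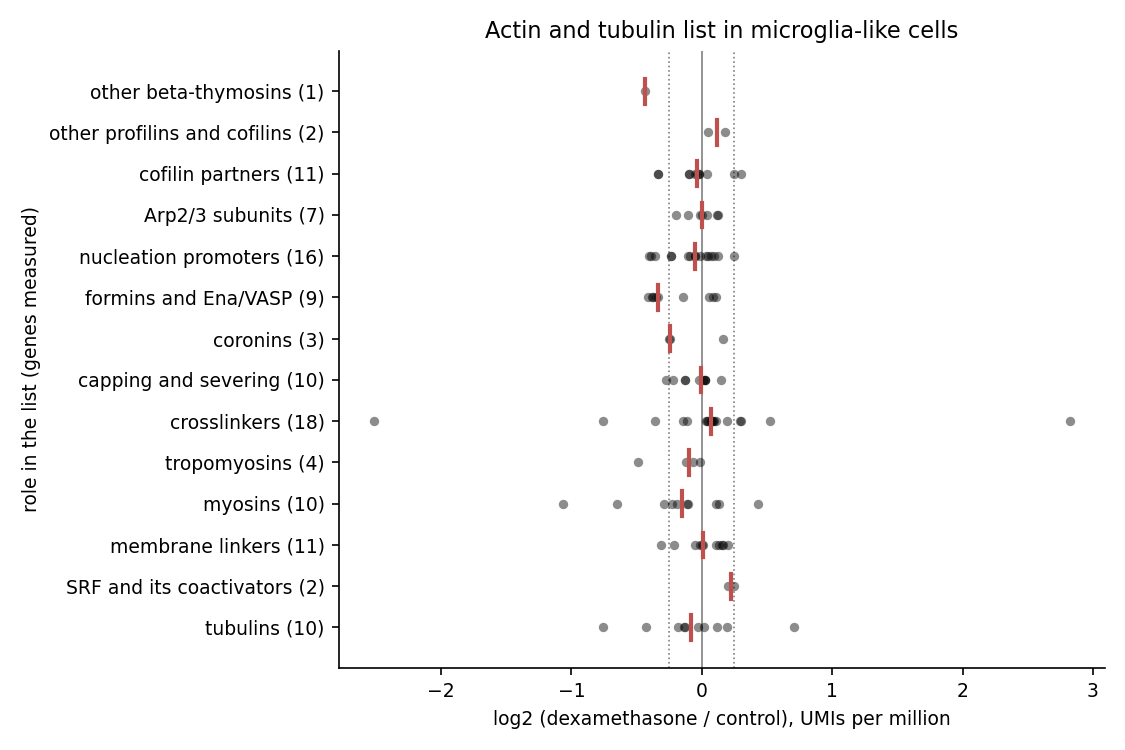
Log2 ratio, dexamethasone over control, of each measured gene of the wider list in microglia-like cells, by role, for the roles described, with the number of genes measured in brackets, a red bar at each role's median and dotted lines at 0.25 in either direction. Of 114 genes shown 84 lie between the dotted lines, the formin and Ena/VASP median lies at -0.34, and Lsp1 at 2.82 is the point furthest right.

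Over the 22 sums of 11 classes and states in each library, the genes most like Actb in level were Cdc5l, Psmb3, Eif3c, Sf3b2 and Sf3b1, with Pearson coefficients of 0.99 among 1349 genes. Those most like Tmsb4x were Gng10, Pdcd10, Scp2, Uqcc3 and Fkbp2, with coefficients from 0.997 for Gng10 to 0.991 for Fkbp2. Actb and Tmsb4x had a coefficient of 0.92 with each other. The sums share 2 libraries, the states are contained in the microglial class and erythroid-like cells lie far from the rest, so the coefficients mostly describe that class. In microglia-like cells Gng10, a G protein gamma subunit, stood at 938.1 against 777.4 CPM (0.27), and Cdc5l, a splicing factor, at 159.0 against 192.6 CPM (-0.28).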

How the data were processed

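Per the submitters' processing notes, the authors used Cell Ranger 7.0.0 and genome build Rnor_6.0. Raw UMI counts per gene and barcode were deposited for 2 libraries, 1 per group. A barcode was kept as a cell with 200 genes or more and a mitochondrial share of 20% or less. Scrublet in scanpy 1.11.5 marked 1 cell of the dexamethasone library, which was removed, and 0 of the control, so it has not worked and doublets remain.

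Classes came from summed marker UMIs per 10000 UMIs of a cell. The thresholds were 100 for macrophages, 5 for 9 core microglial markers, 60 (and 2 times the core sum) for border macrophages, 30 for neurons, 1000 for erythroid cells, 50 for granulocytes and 100 for choroid cells. Cells passing several gates were set aside. States were taken in the order G2/M (20), S phase (8), axon-tract (20), chemokine (10) and homeostatic (10). Within 20% of a threshold lay 228 cells for macrophages, 253 for core and 634 for border markers. Leiden clustering served as an alternative only, since it split microglia by library, with 383 dexamethasone and 2563 control cells in one cluster and 1298 and 216 in another.

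Counts were summed per class and library and given as CPM (UMIs scaled to a total of 1000000) with exact Poisson intervals, shares with Clopper-Pearson intervals and ratios with conditional binomial intervals, at 95%. UMI sums were not tested, since 1 library per group leaves no spread. A gene counted as measured at 100 UMIs or more over both libraries. The ratio step was tested on simulated data with counting error only, which cannot speak to differences between libraries.

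Members and lists were chosen with earlier results of these data known. Named were the 9 members, in each role of the list the gene of highest mean CPM and the one of largest ratio in size with at least 50 CPM in a library, and for Actb and Tmsb4x the 5 genes of highest Pearson coefficient of log2(CPM + 10) with at least 100 CPM. Of 155 list entries 148 matched by symbol or RefSeq synonym, and the values of 1 of its groups are not reported here. Alternatives changed the cell filter, the classes, the scaling (including edgeR 4.0.16 and DESeq2 1.42.0 factors), the pooling, the depth, the state weights and the doublets.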

Additional observations from a re-analysis of the deposited data

Results flagged for a closer look

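Tmsb4x in erythroid-like cells had a log2 ratio of -0.93, against ratios above 0 in microglia-like (0.32), border-macrophage-like (0.28) and other macrophage cells (0.27). It stands out because 1 class moved one way and 3 classes the other under the same contrast. The difference was not tested, since each group is 1 library. In erythroid-like cells the median over 483 genes was -0.52 and the lower quartile -1.12, so the Tmsb4x ratio lay between them. Without the 3 cells of most Tmsb4x UMIs in each library the ratio was -1.86.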

How the results depend on the processing

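Under 14 alternatives each, the summed actins in microglia-like cells stayed lower, with log2 ratios from -0.54 to -0.52, and the summed thymosins stayed higher, from 0.31 to 0.35. Their difference ran from -0.87 to -0.84, and the median of the wider list from -0.08 to -0.02 over 16 alternatives. No value of the 9 members changed sign under these alternatives, though some regulators did in the shallower depth bins above. In those bins the Tmsb4x ratio also varied more widely, from 0.65 under 4000 UMIs to 0.27 at 14000 UMIs or more. Some values moved by more than the counting interval. The actins were at -0.52 with every gate threshold doubled (-0.517) and by per-cell means (-0.517). The thymosins, at 0.323 as reported, were at 0.342 with Leiden clusters, 0.328 with edgeR TMM factors, 0.327 with DESeq2 factors, 0.346 by per-cell means, 0.334 with thinned cells, 0.307 in cells of 6000 to 12000 UMIs, 0.317 with equal state weights and 0.348 without cycling states. The difference, at -0.851, was at -0.864 with Leiden clusters, -0.841 with doubled thresholds, -0.863 by per-cell means and -0.868 without cycling states. Leaving out cycling states and keeping all cells ungated were chosen after seeing the data, as were the erythroid-like alternatives, where Tmsb4x was at -1.08 without globin UMIs and -1.86 without the 3 richest cells per library. Tmsb10, on few UMIs, was at -1.19 in cells of 6000 to 12000 UMIs. The median of all genes stayed between -0.01 and 0.00 under the scalings tried. No paired analysis was possible because each group has 1 library, and for the same reason no replicate could be left out.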
